A study of Rattus norvegicus with 6 samples.

Results

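Fatty acid oxidation breaks fatty acids down to acetyl-CoA in the mitochondrial matrix. Long-chain acyl groups are carried across the mitochondrial membranes as carnitine esters, and each round of beta-oxidation then runs through a dehydrogenation, a hydration, a second dehydrogenation and a thiolytic cleavage that shortens the chain. In adult neural stem cells (NSCs) this pathway is known as a fuel route of the quiescent state, and quiescent hippocampal NSCs are described as having more Cpt1a than proliferating ones. The 10 genes described here are the carnitine acyltransferases *Cpt1a* and *Cpt2*, the acyl-CoA dehydrogenases *Acadvl*, *Acadl*, *Acadm* and *Acads*, the trifunctional protein subunits *Hadha* and *Hadhb*, the hydroxyacyl-CoA dehydrogenase *Hadh*, and *Ppara*, a fatty acid-activated nuclear receptor that drives transcription of many of these enzymes in liver. They were taken by symbol, and all 10 were found among the 17315 rows of each table. All 10 were above 0 in each of the 6 samples and were among the 10331 genes tested.

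The values are from RNA-seq of a rat hippocampal NSC line, a clone isolated from adult animals, in 2 groups of 3 samples numbered 1 to 3. The siControl samples received a control siRNA duplex and the siDerl1 samples 1 duplex against *Derl1*, which encodes the ER membrane protein Derlin-1. All 6 samples were transfected in the same way and had been treated with BMP4, a growth factor that induces quiescence in this line, for 2 days. No source used here says whether the samples of a group came from separate cultures, so the p-values measure the spread between these samples, which may be technical. The unit is TPM (transcripts per 1000000), which is corrected for transcript length and keeps no read number, so the depth behind a value is unknown. Samples had between 11641 and 11808 genes above 0. *Derl1* was at 122, 132 and 128 TPM under siControl and 44.9, 70.8 and 74.0 TPM under siDerl1, a log2 fold change of −1.03 in the direction of the labels (limma adjusted p = 0.497, or 0.00884 in a fit that takes the sample number as a block). Both samples numbered 1 lay apart from the other 4 on the first principal component of all genes tested.

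The labelled cell type was checked with markers. All 11 NSC markers were above 1 TPM on average, from *Pax6* at 3.96 to *Vim* at 4304 TPM. Of 6 markers of the oligodendrocyte lineage, 5 were also above 1 TPM, led by *Sox10* at a mean of 652 TPM, with *Mog* listed at 0, and their sum was 1224 to 1498 TPM in siControl and 1181 to 1632 TPM in siDerl1 NSCs. Of 6 astrocyte markers, the 4 tested were each higher in siDerl1 NSCs in the fit, though *S100b* by a log2 fold change of only 0.01. *Aqp4* and *Aldh1l1* were under 1 TPM and had lower means under siDerl1. The astrocyte sum was 493 to 731 TPM in siControl and 504 to 781 TPM in siDerl1 NSCs. It was led by *S100b* at 536 TPM, and the lowest was *Aldh1l1* at 0.0350 TPM. *Gfap* was at 47.0, 27.7 and 28.9 TPM under siControl and 66.3, 47.5 and 45.3 TPM under siDerl1 (log2 fold change 0.62, limma adjusted p = 0.704, or 0.0219 with the block). The study listed *Gfap* as higher in these same samples, so its rise here is not independent evidence. *Nes*, an NSC marker chosen after its values were seen, was at 137, 125 and 113 TPM under siControl and 111, 101 and 99.4 TPM under siDerl1 (log2 fold change −0.26, limma adjusted p = 0.704, or 0.0899 with the block). Of the 11 NSC markers 6 were higher and 5 lower, with a median log2 fold change of 0.06, and *Nes* was the 1 with an unadjusted p under 0.05. The NSC list summed to 5255 to 8557 TPM in siControl and 5681 to 8665 TPM in siDerl1 NSCs. Of 7 neuron markers *Tubb3* led at 73.3 TPM and *Stmn2* was lowest at 0.0217 TPM, with sums of 83.6 to 99.4 TPM in siControl and 94.7 to 104 TPM in siDerl1 NSCs. The neuron marker with an unadjusted p under 0.05, *Dcx*, went the other way, at 8.83, 10.95 and 9.57 TPM under siControl and 6.38, 7.10 and 7.63 TPM under siDerl1 (log2 fold change −0.42, limma adjusted p = 0.704, or 0.205 with the block). The 7 microglia markers summed to at most 5.46 TPM, nearly all of it *P2ry12* at 4.26 TPM, with *Cx3cr1* and *Tyrobp* listed at 0, and the 4 endothelial ones to at most 0.670 TPM, with *Kdr* highest at 0.483 TPM and *Cdh5* and *Cldn5* listed at 0. The 10 cell cycle genes, from *Bub1* at 65.2 to *Pcna* at 377 TPM, summed to 1506 to 1647 TPM in siControl and 1408 to 1681 TPM in siDerl1 NSCs. No cell cycle gene had an unadjusted p under 0.05. The part of these markers in the values below was not tested. In bulk RNA, fewer cells of a type and less RNA per cell cannot be told apart.

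A pair of the enzyme genes lies head to head. *Hadha* and *Hadhb* encode the alpha and beta subunits of the mitochondrial trifunctional protein, and in the rat assembly GRCr8 their transcripts start 301 bases apart on opposite strands of chromosome 6. Promoter windows of 300 bases, from 250 before to 50 after a start, were taken from RefSeq for the build GRCr8, which is not the build the reads were mapped to. A window was held for 9 of the 10 genes, all but *Acadl*. The *Hadha* and *Hadhb* windows are shown because these genes share 200 bases of promoter sequence. Their siControl and siDerl1 values overlapped for *Hadha* and not for *Hadhb*, and whether the 2 genes differ in their change was not tested. The *Acadvl* window is shown because this gene was the member highest in siDerl1 relative to siControl NSCs. *Hadha* is at chr6:31907551-31907850 on the plus strand, *Hadhb* at chr6:31907451-31907750 on the minus strand and *Acadvl* at chr10:55236656-55236955 on the minus strand. In the first 2 sequences the capitals mark the shared bases, and in the last they mark the letters AGGTCA on either strand, the half-site that nuclear receptors such as PPARA bind in pairs.
Hadha: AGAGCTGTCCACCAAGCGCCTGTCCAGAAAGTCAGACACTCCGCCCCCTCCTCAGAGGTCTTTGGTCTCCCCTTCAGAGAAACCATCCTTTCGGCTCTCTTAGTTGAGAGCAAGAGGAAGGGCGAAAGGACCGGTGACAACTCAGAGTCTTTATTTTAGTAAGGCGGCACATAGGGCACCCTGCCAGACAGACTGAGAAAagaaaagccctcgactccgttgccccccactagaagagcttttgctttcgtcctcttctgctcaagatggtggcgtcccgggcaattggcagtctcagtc
Hadhb: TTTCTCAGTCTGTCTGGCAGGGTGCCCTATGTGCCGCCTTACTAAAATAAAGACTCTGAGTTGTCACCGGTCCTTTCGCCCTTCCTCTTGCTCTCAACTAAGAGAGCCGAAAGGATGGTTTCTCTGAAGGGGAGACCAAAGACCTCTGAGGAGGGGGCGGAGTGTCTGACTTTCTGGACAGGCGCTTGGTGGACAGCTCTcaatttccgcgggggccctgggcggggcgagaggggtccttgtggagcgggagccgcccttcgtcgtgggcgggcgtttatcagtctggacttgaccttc
Acadvl: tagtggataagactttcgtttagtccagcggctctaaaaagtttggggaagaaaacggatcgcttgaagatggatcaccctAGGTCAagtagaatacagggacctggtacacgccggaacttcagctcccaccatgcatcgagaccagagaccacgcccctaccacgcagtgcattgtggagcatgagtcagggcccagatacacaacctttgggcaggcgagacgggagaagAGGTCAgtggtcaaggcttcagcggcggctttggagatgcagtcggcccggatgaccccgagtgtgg

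The half-site AGGTCA, searched on both strands, was in 2 of the 9 windows, *Acadvl* with 2 copies and *Hadhb* with 1, and in 16.2% of all 33469 promoter windows of the same length. Its direct repeat with any 1 base between the copies, the element known for PPARA and its partner RXR, was in 0 of the 9 windows and in 0.0538% of all windows. The GC box GGGCGG was in 7 of the 9, all but *Cpt1a* and *Acadvl*, and in 33.1% of all windows. The only box of *Hadha* lies in the bases shared with *Hadhb*, so this site is counted in both windows. The 7 windows were 54.3% to 73.7% G or C, beside a median of 51.7% for all windows. The CCAAT box was in 2 of the 9, *Acads* and *Hadha*, and in 37.5% of all. These matches describe the letters in the windows only.

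The enzymes of the pathway were abundant and *Ppara* was not. *Acadl*, the long-chain acyl-CoA dehydrogenase, was the highest member in all 6 samples with a mean of 262 TPM, at the 94.4th percentile of the genes tested. *Hadha*, *Hadhb* and *Hadh* followed at 186, 174 and 162 TPM and took places 2 to 4 in each sample in differing order. *Acads*, *Cpt1a*, *Acadvl* and *Acadm* formed the next tier, between means of 64.6 and 78.4 TPM. *Cpt2* was next at 30.8 TPM, near the middle of the genes tested (47.3% were at or below it), and *Ppara* was last at 4.16 TPM (9.42% at or below). The 6 values of a gene did not overlap with those of the next lower gene between *Acadl* and *Hadha*, *Hadh* and *Acads*, *Acadm* and *Cpt2*, or *Cpt2* and *Ppara*. Within the tiers all neighbours in this order overlapped. The 10 genes together held 1119.7, 1141 and 1132 TPM in siControl and 1114, 1059.6 and 1075 TPM in siDerl1 NSCs. Each siDerl1 sum lay below each siControl sum, with means of 1131 ± 10.6 and 1083 ± 28.2 TPM (SD, n = 3 each). The nearest were siControl 1 and siDerl1 1, at 1119.7 and 1114 TPM. The largest falls in mean were those of *Hadhb* (189.8 to 158 TPM) and *Hadh* (170.6 to 154 TPM). In contrast, *Acadl*, *Acadvl* and *Acads* had higher means under siDerl1, so the sum does not describe each gene. The sums were not tested.

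**Figure D1:**
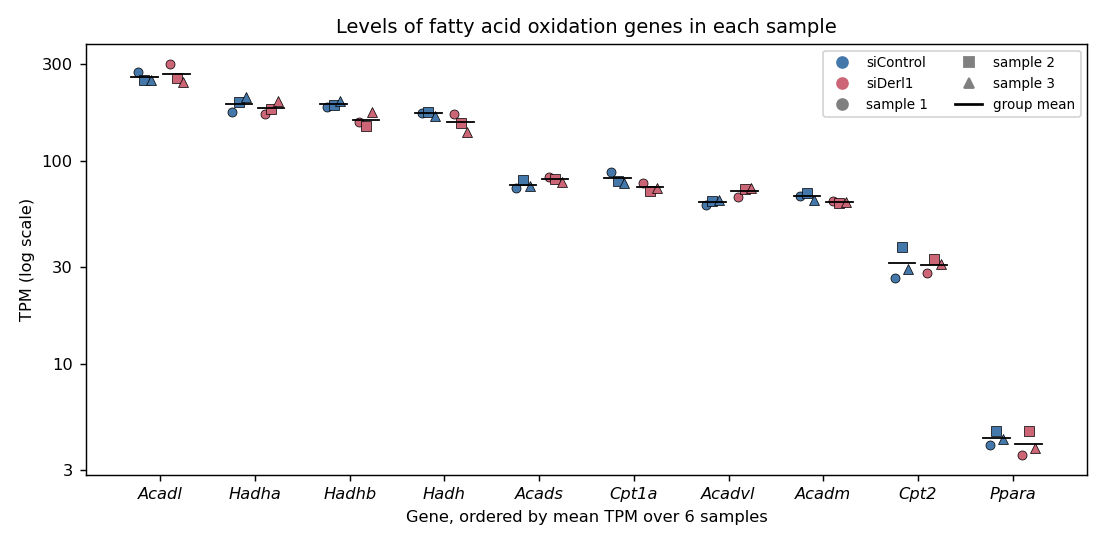
TPM of the 10 genes in each sample on a log axis, with siControl samples in blue, siDerl1 samples in red, the sample number as the marker shape and group means as bars. *Acadl* is highest at a mean of 262 TPM, *Ppara* lowest at 4.16 TPM, and group means of each gene lie close together relative to the distance between tiers.

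Whether knockdown of *Derl1* moved these genes was tested with limma on log2(TPM + 1) across all 10331 genes. The 10 genes had a median log2 fold change, siDerl1 minus siControl, of −0.08, with 3 higher and 7 lower, beside −0.02 for all genes tested, of which 45.2% were higher. No member had an adjusted p under 0.05, and neither had any other gene (0%), with adjusted p values of the members from 0.704 to 0.988. At an unadjusted p under 0.05 from limma there were 2 members, *Hadhb* lower and *Acadvl* higher, beside 6.7% of all genes. This number was 3 without siDerl1 sample 1 and 1 without any other single sample. The groups did not overlap in 4 of the 10, *Hadhb*, *Cpt1a* and *Acadm* lower and *Acadvl* higher, beside 13.6% of all genes. With 3 samples against 3 the smallest two-sided p of an exact permutation test is 0.1 for any single gene. No member passed the limits of a fold change above 1.5 or below 0.8 with an unadjusted p under 0.05, which 1.91% of all genes passed.

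The differences were small. The largest difference, that of *Hadhb*, was −0.26 on the log2 scale, and the median size without sign was 0.09, beside 0.10 for all genes. The median standard error of the members was 0.08, beside 0.12 for all genes. The 95% intervals of the 10 fold changes, not adjusted for the number of genes, ran from 0.718 to 1.26 at their outermost bounds. A rise of 1.5-fold thus lay outside all 10 intervals, whereas a fold change of 0.8 lay within 4 of them.

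Samples of the same number were also compared as pairs. With the sample number as a block in the fit, 57 genes or 0.552% had an adjusted p under 0.05, with 0 of the 10 among them. The smallest adjusted p of a member from limma was then 0.0809, for *Hadhb*. At an unadjusted p under 0.05 the block gave 4 members, adding *Hadh* and *Cpt1a*, both lower, beside 15.7% of all genes. *Hadha*, *Hadhb*, *Hadh*, *Cpt1a*, *Acadm* and *Ppara* were lower in siDerl1 NSCs in all 3 pairs, 6 of 10 beside 22.1% of all genes. *Acadvl* and *Acads* were higher in all 3, 2 of 10 beside 15.8%. *Acadl* and *Cpt2* had pairs of both signs.

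**Figure D2:**
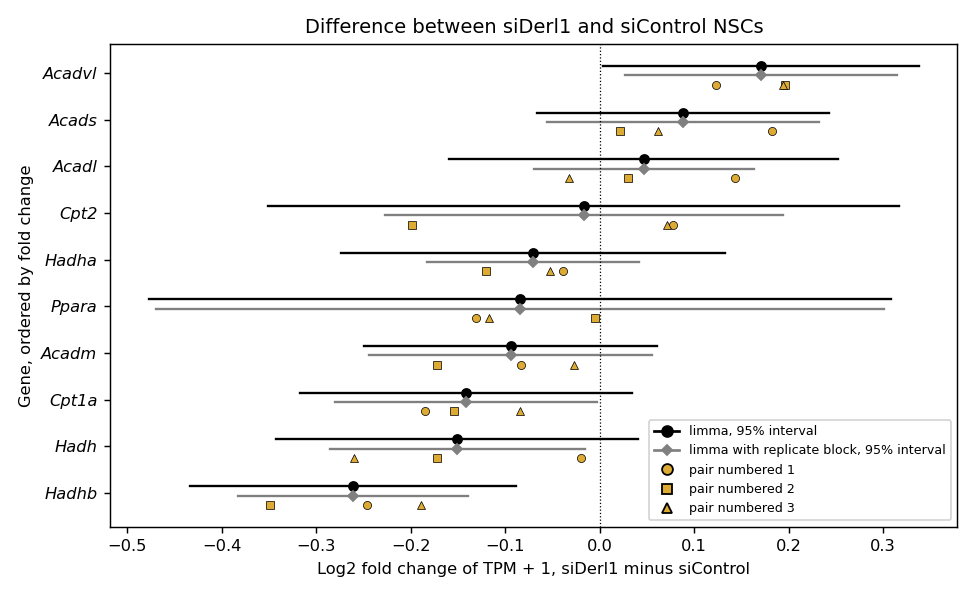
Log2 fold change of TPM + 1, siDerl1 minus siControl, for the 10 genes, with the 95% interval of limma in black, that with the replicate block in grey and the 3 same-numbered pairs in yellow. The black interval excludes 0 for *Hadhb* (−0.26) and *Acadvl* (0.17), before any adjustment for the number of genes.

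*Cpt1a* (NM_031559) encodes the liver-type carnitine palmitoyltransferase of the outer mitochondrial membrane, the step at which malonyl-CoA controls entry of long-chain fatty acids. It was at 88.0, 79.3 and 77.8 TPM under siControl and 77.3, 71.1 and 73.4 TPM under siDerl1. Every siDerl1 sample was below every siControl sample, with siControl 3 and siDerl1 1 nearly level. The mean went from 81.7 ± 5.51 to 73.9 ± 3.15 TPM (SD, n = 3 each), 9.51% lower, a log2 fold change of −0.14 (SE, the standard error, 0.07, limma adjusted p = 0.769, or 0.309 with the block). Without siControl sample 1 it was −0.09. *Cpt2* (NM_012930), the inner-membrane enzyme that returns the acyl group to coenzyme A, was at 26.3, 37.7 and 29.4 TPM under siControl and 27.8, 32.7 and 30.9 TPM under siDerl1. Its groups overlapped fully and siControl 2 was the highest of the 6. The log2 fold change was −0.02 with a 95% interval from −0.35 to 0.32, and it turned positive under 3 of 16 alternatives. Of the paralogs of *Cpt1a*, the muscle-type *Cpt1b* was at 5.14, 3.43 and 6.29 TPM under siControl and 7.62, 6.31 and 6.39 TPM under siDerl1. The groups did not overlap, with siControl 3 and siDerl1 2 nearly level. The log2 fold change of *Cpt1b* was 0.41 (adjusted p = 0.765 from limma), or 0.21 without siControl sample 2. The paralog *Cpt1c* had a higher mean of 15.4 TPM and overlapping groups (log2 fold change 0.23, adjusted p = 0.817 from limma).

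Of the 4 acyl-CoA dehydrogenases, which catalyse the first step on chains of decreasing length, *Acadl* made up between 53.3% and 58.6% of their summed TPM in each sample. *Acadvl* (NM_012891), the very long-chain enzyme, was at 60.5, 63.4 and 63.6 TPM under siControl and 65.9, 72.7 and 72.9 TPM under siDerl1. All siDerl1 values were above all siControl values, with siDerl1 1 the nearest to the siControl group. The mean went from 62.5 ± 1.75 to 70.5 ± 3.96 TPM (SD, n = 3 each), 12.9% higher, a log2 fold change of 0.17 (SE 0.07, limma adjusted p = 0.738, or 0.243 with the block). *Acadm* (NM_016986), the medium-chain enzyme, was at 67.1, 69.5 and 63.8 TPM under siControl and 63.3, 61.6 and 62.6 TPM under siDerl1. The groups did not overlap, with siControl 3 and siDerl1 1 nearly level, and the log2 fold change of −0.09 had a 95% interval from −0.25 to 0.06 (adjusted p = 0.828 from limma). *Acadm* was above *Acadvl* in each siControl sample and below it in each siDerl1 sample, an order noticed after the values were seen and not tested.

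*Acads* (NM_022512), the short-chain dehydrogenase, was at 72.9, 79.9 and 75.3 TPM under siControl and 82.8, 81.1 and 78.6 TPM under siDerl1, overlapping only through siControl 2 (log2 fold change 0.09, adjusted p = 0.844 from limma, and 0.06 to 0.12 for the fold change with 1 sample left out, lowest without siControl 1). *Acadl* (NM_012819) was at 272, 249.9 and 249.9 TPM under siControl and 300.3, 255 and 244 TPM under siDerl1. The samples numbered 1 were the highest of each group, and the groups overlapped. The log2 fold change was 0.05, with a 95% interval from −0.16 to 0.25. Without both samples numbered 1 it was −0.00161, and without siDerl1 sample 1 it was −0.04.

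The trifunctional protein carries out the later 3 steps on long chains, with the hydratase and hydroxyacyl-CoA dehydrogenase activities on the alpha subunit and the thiolase on the beta subunit. *Hadhb* (NM_133618), the beta subunit, was at 184, 189 and 197 TPM under siControl and 155, 148 and 173 TPM under siDerl1. The groups did not overlap, with all 3 siDerl1 values lower. The mean went from 189.8 ± 6.82 to 158 ± 12.9 TPM (SD, n = 3 each), 16.5% lower, a log2 fold change of −0.26 (SE 0.07, limma adjusted p = 0.704, or 0.0809 with the block). Leaving out single samples put the log2 fold change between −0.32 and −0.21. With the block and without both samples numbered 1, an alternative chosen after seeing the data, it was −0.27 with an adjusted p of 0.0108 from limma, in a fit that called 506 genes. *Hadha* (NM_130826), the alpha subunit, was at 173, 195 and 205 TPM under siControl and 169, 179 and 197 TPM under siDerl1. The groups overlapped, the samples numbered 1 were the lowest of each group, and the log2 fold change was −0.07 with a 95% interval from −0.27 to 0.13 (adjusted p = 0.929 from limma). It ran from −0.14 without siControl sample 1 to −0.02 without siControl sample 3.

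The ratio of *Hadhb* to *Hadha* TPM was 1.06, 0.969 and 0.964 in siControl NSCs and 0.917, 0.827 and 0.876 in siDerl1 NSCs. The ratio was thus 0.998 ± 0.0540 against 0.873 ± 0.0454 (SD, n = 3 each), without overlap of the groups. It was computed after the values of both genes had been seen, and is given as a description with no test.

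**Figure D3:**
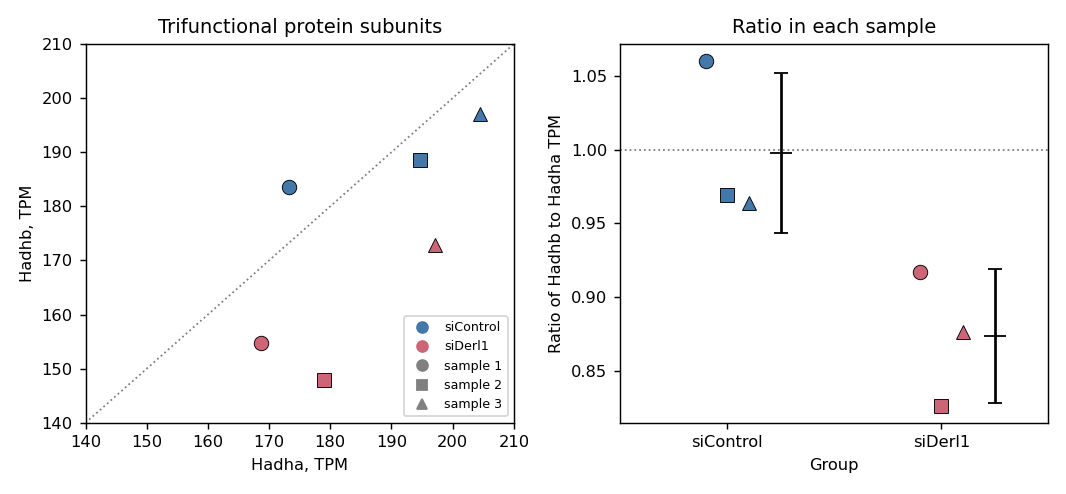
Left, *Hadhb* against *Hadha* TPM in each sample, with siControl in blue, siDerl1 in red and a dotted line of equal levels. Right, the ratio of *Hadhb* to *Hadha* in each sample with the group mean ± SD, 0.998 ± 0.0540 in siControl and 0.873 ± 0.0454 in siDerl1 NSCs. The right axis does not start at 0.

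*Hadh* (NM_057186), the hydroxyacyl-CoA dehydrogenase for medium and short chains, was at 172, 174 and 166 TPM under siControl and 169.9, 154 and 139 TPM under siDerl1. The siControl values were close together and the siDerl1 values spread out, with siDerl1 1 inside the siControl range and the other 2 below it. The log2 fold change was −0.15 (SE 0.08, limma adjusted p = 0.769, or 0.274 with the block), and the pairs differed by −0.02, −0.17 and −0.26. It was −0.08 without siDerl1 sample 3 and −0.22 without siDerl1 sample 1. *Ppara* (NM_013196) was at 3.97, 4.67 and 4.26 TPM under siControl and 3.54, 4.65 and 3.85 TPM under siDerl1. Its groups overlapped, and the 95% interval of its log2 fold change, −0.48 to 0.31, was the widest of the 10, at the lowest level. Its log2 fold change of −0.08 ran from −0.17 without siDerl1 sample 2 to −0.02 without siDerl1 sample 1.

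Levels were also compared between the sample numbers. The moderated F test of the 3 numbers in limma called 10.6% of all genes at an adjusted p under 0.05 and 0 of the 10 members. The smallest adjusted p values were 0.0891 for *Hadha*, 0.109 for *Acadl* and 0.151 for *Cpt2*. In these same 3 genes both samples numbered 1 stood outside the range of the other 4, with *Acadl* higher (a mean of 286 against 249.8 TPM) and *Hadha* (171 against 194 TPM) and *Cpt2* (27.1 against 32.7 TPM) lower. The median coefficient of variation over the 6 samples was 7.93% for the members, beside 8.56% for the 6753 genes at or above 20 TPM.

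**Figure D4:**
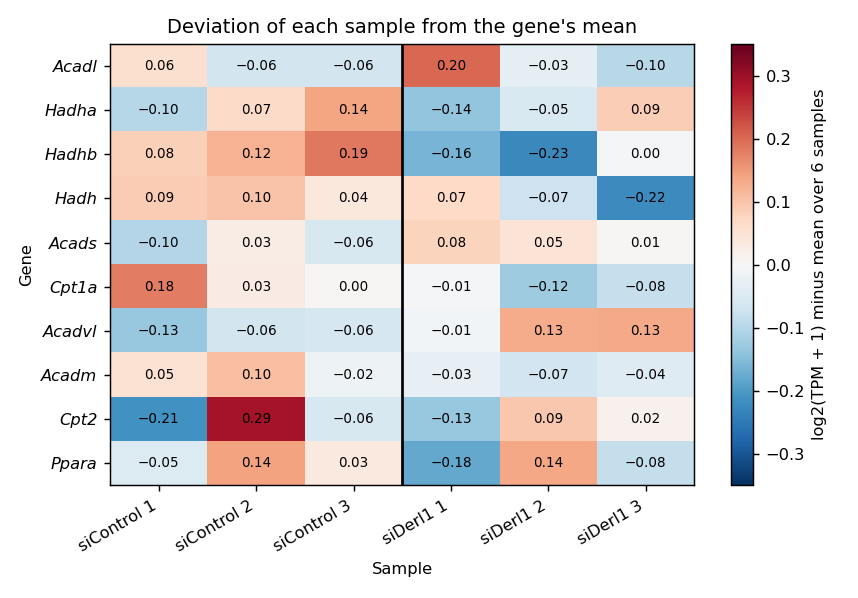
Deviation of log2(TPM + 1) of each sample from the gene's mean over the 6 samples, with genes as rows, samples as columns and a black line between siControl and siDerl1. *Hadhb* is above its mean in all 3 siControl samples, and *Cpt2* has the widest range, from −0.21 in siControl 1 to 0.29 in siControl 2.

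The rest of the pathway was read from 7 lists with 96 genes, of which 95 were found and 78 passed the filter of a mean TPM of at least 1. Of these 78, 29 were higher and 49 lower in siDerl1 NSCs, with a median log2 fold change of −0.04. An unadjusted p under 0.05 was reached by 5 of them (6.41%), 3 higher and 2 lower, close to the 6.7% of all genes. None had an adjusted p under 0.05 in limma without the block. With the block, 17 (21.8%) had an unadjusted p under 0.05, beside 15.7% of all genes.

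Among 18 other genes of the mitochondrial pathway, all tested, 10 were higher and 8 lower, with a median log2 fold change of 0.00. They include the electron transfer flavoproteins *Etfa* and *Etfb*, which accept electrons from the acyl-CoA dehydrogenases, and the carnitine carrier *Slc25a20*, none of which had an unadjusted p under 0.05. *Acadsb*, a dehydrogenase of short branched chains, was at 15.4, 16.0 and 12.7 TPM under siControl and 19.0, 19.7 and 17.6 TPM under siDerl1 (log2 fold change 0.34, adjusted p = 0.704 from limma). *Acad10*, a family member of less settled function, was at 10.7, 9.72 and 11.96 TPM under siControl and 16.0, 13.4 and 13.1 TPM under siDerl1 (log2 fold change 0.36, adjusted p = 0.704). Both had groups that did not overlap, with all siDerl1 values above all siControl values.

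Of 17 genes of the peroxisomal pathway, which shortens very long and branched chains, 15 were tested, 5 higher and 10 lower, with a median of −0.04 and 0 at an unadjusted p under 0.05. *Ehhadh*, the peroxisomal bifunctional enzyme, was at 3.02, 2.19 and 1.55 TPM under siControl and 3.84, 3.63 and 3.01 TPM under siDerl1 (log2 fold change 0.49, adjusted p = 0.763 from limma, and a log2 fold change of 0.32 without siControl sample 3). The groups overlapped by a narrow margin at siControl 1 and siDerl1 3. It is among the genes that the study listed as higher in these samples, so its place here is not independent evidence. *Abcd3*, a peroxisomal membrane transporter, was at 92.2, 92.0 and 96.6 TPM under siControl and 85.5, 83.9 and 88.2 TPM under siDerl1, without overlap (log2 fold change −0.12, adjusted p = 0.763). *Crot*, the peroxisomal carnitine octanoyltransferase, differed by −0.24 on the log2 scale (adjusted p = 0.764), or by −0.12 without siControl sample 2.

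Of 14 genes of fatty acid uptake and activation, 11 were tested, 3 higher and 8 lower, with a median of −0.04. *Acsl1*, a long-chain acyl-CoA synthetase, was at 59.0, 52.8 and 48.7 TPM under siControl and 80.4, 68.1 and 60.3 TPM under siDerl1. Its groups did not overlap, and the log2 fold change was 0.37 (SE 0.12, limma adjusted p = 0.704, or 0.0557 with the block). Its relative *Acsl4* differed by −0.21 on the log2 scale (adjusted p = 0.763), or by −0.14 without siControl sample 3. The fatty acid binding protein *Fabp3* was at 2.5, 2.56 and 0 TPM under siControl and 4.39, 2.66 and 1.87 TPM under siDerl1, with overlapping groups and a log2 fold change of 0.73 that was 0.12 without siControl sample 3, which is listed at 0.

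Of 10 genes that set malonyl-CoA, the inhibitor of Cpt1a, or belong to AMPK and its upstream kinase, all were tested, with 3 higher, 7 lower and a median of −0.11. *Prkag1*, the gamma 1 subunit of AMPK, was at 149, 154 and 155 TPM under siControl and 133, 134 and 136 TPM under siDerl1. The groups lay well apart relative to their spread (log2 fold change −0.18, standard error 0.05, limma adjusted p = 0.704, or 0.151 with the block). *Prkaa1*, the alpha 1 catalytic subunit, was at 31.6, 36.8 and 32.6 TPM under siControl and 28.1, 29.7 and 29.7 TPM under siDerl1, also without overlap (log2 fold change −0.20, adjusted p = 0.754). *Prkab2* differed by −0.29 on the log2 scale (adjusted p = 0.828) with overlapping groups, by −0.10 without siDerl1 sample 1 and by −0.48 without siDerl1 sample 3.

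Of 15 nuclear receptors and cofactors, 14 were found and 11 tested. All 11 had a negative log2 fold change, with a median of −0.08, while 45.2% of all genes tested were higher. Some were close to 0, with *Med1* at −0.00152. *Ppargc1b*, at −0.04, had a higher mean TPM under siDerl1 (2.29) than under siControl (2.11). An unadjusted p under 0.05 was reached by 1 of the 11. That gene was *Rxra*, the partner of PPARA on DNA, at 85.9, 69.5 and 66.7 TPM under siControl and 65.6, 60.7 and 58.2 TPM under siDerl1 (log2 fold change −0.26, adjusted p = 0.740 from limma). Without siControl sample 1 its log2 fold change was −0.15. *Ppargc1a*, a coactivator of PPARA and of mitochondrial genes, was at 2.29, 14.4 and 12.8 TPM under siControl and 1.29, 3.78 and 5.79 TPM under siDerl1. It was low in both samples numbered 1 and lower with siDerl1 in each pair, so that the groups overlapped through siControl 1 (log2 fold change −1.08, standard error 0.65, limma adjusted p = 0.787, or 0.0817 with the block). It ran from −1.79 without siControl sample 1 to −0.64 without siDerl1 sample 1.

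Of 18 known PPARA target genes outside beta-oxidation, 9 were tested, since the other 9 had a mean TPM under 1, with *Plin2*, *Ucp2* and *Cyp4a1* among these (named after their values were seen). Of the 9 tested, 5 were higher and 4 lower, with a median of 0.09. *Acot2*, a mitochondrial acyl-CoA thioesterase, was at 29.6, 29.3 and 32.3 TPM under siControl and 26.0, 27.1 and 26.8 TPM under siDerl1 (log2 fold change −0.18, adjusted p = 0.754), and *Pnpla2*, a triglyceride lipase, differed by 0.14 on the log2 scale (adjusted p = 0.788), or by 0.22 without siDerl1 sample 3. The 4 ketone body enzymes had a median of 0.03, with 3 higher and 1 lower. *Oxct1*, which activates ketone bodies for use, and *Bdh2* had log2 fold changes of 0.02 and −0.06, with adjusted p values of 0.964 and 0.969 from limma, and both signs occurred with single samples left out.

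**Figure D5:**
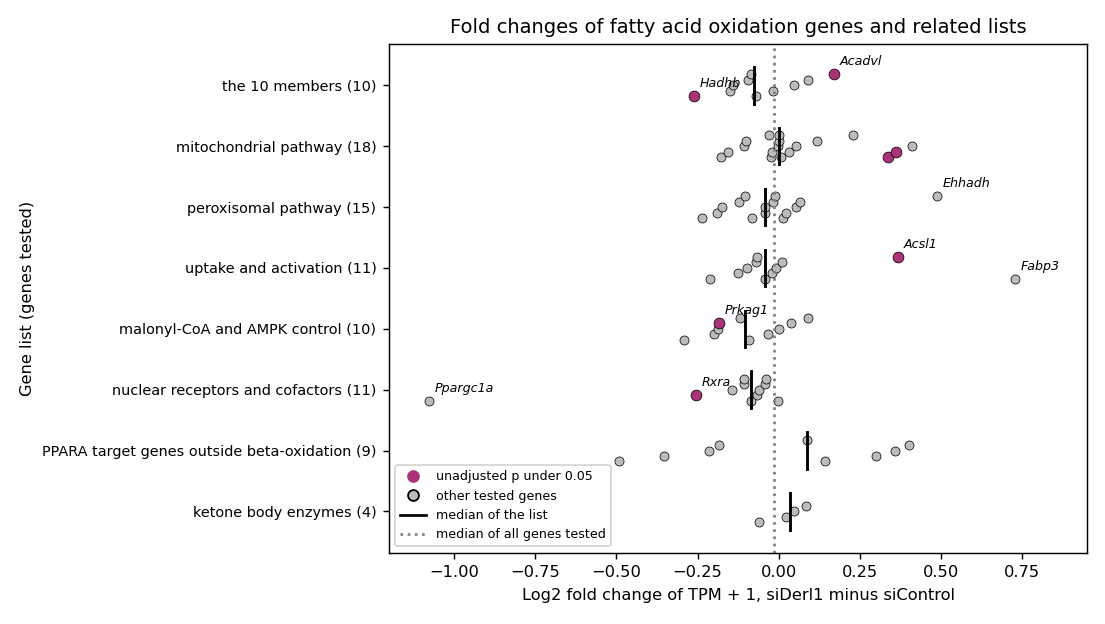
Log2 fold change of TPM + 1, siDerl1 minus siControl, for each tested gene of the 10 members and of 7 related lists, with genes at an unadjusted p under 0.05 in purple, list medians as black bars and the median of all genes tested as a dotted line. The list medians lie between −0.11 and 0.09, and *Ppargc1a* (−1.08) is farthest from 0.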

How the data were processed

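Total RNA of 6 samples was made into poly(A)-selected libraries with a kit that marks strand. Per the labels and the methods, the authors used Trimmomatic (0.39) for trimming, STAR (2.7.3a) for mapping to rn6, RSEM (1.3.2) for quantification and edgeR (3.28.1) for their own tests. The values the authors deposited are TPM, 1 table per sample, each summing to 1000000. Whether RSEM used strand is not given in the sources used here.

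Values were set as log2(TPM + 1). The 10331 genes whose mean TPM reached 1 were fitted with limma (3.58.1, R 4.3.3; lmFit, eBayes with an intensity trend) and adjusted by Benjamini-Hochberg over all of them. A fold change on this scale understates that of low genes such as *Ppara*. Samples were grouped by title. The fits were tested on simulated data. TPM gives no counting error. No 2 samples shared more than 0.232% of their values.

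Deviations from the group means correlated at 0.70, 0.35 and 0.51 between same-numbered samples, across genes, so the numbers were taken as pairs in the replicate block. Differently numbered samples correlated at 0.34 (siControl 2 with siDerl1 3) and 0.25 (siControl 3 with siDerl1 2), near the value of the pair numbered 2, and at −0.41 to −0.59 where 1 of them was numbered 1, so the check mainly sets the samples numbered 1 apart from the others. The alternatives were another pseudocount (0.1), filter (none, or a mean of 5), scaling (median of ratios) and moderation (no trend), the replicate block, and each sample left out. Both samples numbered 1 left out, and the block with other changes, were added after seeing the data.

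The members and lists were chosen with earlier results of these data known. Named are the 10 members, *Derl1*, the 3 genes of each list with the smallest p plus any with an unadjusted p under 0.05, and the highest and lowest gene of each marker list. Some listed genes that this rule takes are counted in their lists but not reported here by name. Other genes named were chosen after their values were seen.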

Additional observations from a re-analysis of the deposited data

How the results depend on the processing

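Of 159 refits of the 10 members (16 alternatives each, and 15 for *Ppara*, which a minimum mean of 5 TPM removes), 153 kept the direction of the log2 fold change. The 6 that did not were in *Cpt2* (0.00115 with median-of-ratios scaling) and *Acadl* (−0.00161 without both samples numbered 1, with or without the replicate block). With 1 sample left out *Cpt2* ran from −0.13 to 0.13 and *Acadl* from −0.0419 to 0.107. Median-of-ratios scaling moved the median of all genes from −0.02 to 0.00. The member median stayed negative in all of these fits. The number of members with an unadjusted p under 0.05, 2 in the report, was 1 without an intensity trend, 4 with the replicate block, 4 with the block and no filter, 1 with the block and no trend, and 1 to 3 with 1 sample left out. With the block and without both samples numbered 1, 1 member passed an adjusted p of 0.05, *Hadhb*. The groups did not overlap in 5 members without both samples numbered 1, beside 42.8% of all genes.

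For all genes, those with an adjusted p under 0.05 numbered 57 with the block, 2 with the block and no filter, 35 without both samples numbered 1 and 506 with the block and without them. Those with an unadjusted p under 0.05, 692 in the report, numbered 1624, 1691 and 1318 with the block (as it is, with no filter, with no trend), 1141 without both samples numbered 1, 1855 with the block and without them, and 427 to 804 with 1 sample left out (lowest without siControl sample 2). Of the listed pathway genes, 5 in the report, 17, 18 and 14 passed in the same 3 block fits, 12 without both samples numbered 1, 16 with the block and without them, and 2 to 9 with 1 sample left out, lowest without siDerl1 sample 2 and highest without siControl sample 1. At an adjusted p under 0.05 there was 1 with the block and 3 with the block and without both samples numbered 1 (*Ppargc1a* and *Acsl1* among the latter). *Derl1* passed with the block (−1.03) and without both samples numbered 1 (−0.83, and −0.83 with the block). With the block and no filter, or no trend, *Derl1* had adjusted p values of 0.104 and 0.229 from limma, and no listed pathway gene passed. *Bdh2* ran from −0.27 to 0.16 and *Oxct1* from −0.0144 to 0.0602 with 1 sample left out. Of the genes named here, the block changed the call at an adjusted p under 0.05 of *Derl1* and *Gfap* and of no other. The cause of these changes was not tested. TPM keeps no read number, so the precision of low genes such as *Ppara* can be read from the spread of 3 samples only.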
